A study of Mus musculus with 20 samples.

Results

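The genes of MHC class II antigen presentation were followed in microglia of mThy1-α-synuclein mice and wild-type littermates. They were taken by symbol from the table of normalized counts, and all 10 were found among its 24062 genes: H2-Aa, H2-Ab1, H2-Eb1, H2-Eb2, H2-Oa, H2-Ob, H2-DMa, H2-DMb1, Cd74 and Ciita. RNA was sequenced from 10 animals of 7 months, 6 of them transgenic and 4 wild-type, and from 10 animals of 10 months, 5 of each genotype. The mThy1-α-synuclein mice carried human wild-type α-synuclein under the murine Thy-1 promoter, which is active mainly in neurons, as a hemizygous insertion on the X chromosome. All mice were untreated males on the B6D2F1/J background, and every library was made from 1 animal's entire brain. The study's methods name CD11b magnetic beads for the selection of microglia, whereas the sample labels name IBA1. The mice of an age were processed together and normalized apart from those of the other age, so age and processing cannot be told apart and the genotypes were compared within each age.

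MHC class II molecules carry peptides from endocytosed and self proteins to the cell surface, where CD4+ T cells read them. The α and β chains assemble with the invariant chain Cd74 and travel to late endosomes, where cathepsins trim Cd74, and the H2-DM heterodimer exchanges the remaining CLIP fragment for other peptides. The H2-O heterodimer binds H2-DM and dampens that exchange, and Ciita is the transactivator that switches class II genes on. Resting microglia hold little class II, and the genes are best known there as being induced by interferon γ, while border macrophages, dendritic cells and B cells of the same tissue express them at high levels.

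The values are normalized counts, that is, reads counted on a gene divided by a size factor of the mouse. Between 33404096 and 77806399 reads per mouse were counted on genes. Thy1, the gene whose promoter drives the transgene, had means of 919 in transgenic and 39.2 in wild-type mice at 7 months and of 1423 and 17.4 at 10 months (limma, adjusted p = 0.000203 and 3.44e-09), in keeping with the labelled genotypes. Microglial markers were abundant in every group, with group means of P2ry12, a purinergic receptor of microglia, between 238650 and 328569. Genotypes were compared with limma's moderated test on log2(normalized count + 1), with Benjamini-Hochberg adjustment of the p-values over all genes tested. A gene past an adjusted p of 0.05 is called changed, and fold changes are transgenic over wild-type on that log2 scale. A gene was tested where at least 4 mice at 7 months or at least 5 at 10 months reached a normalized count of 10, which kept 9 of the 10 class II genes at each age and left out H2-Eb2.

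Of the 9 class II genes tested, H2-Ob alone changed by this test, and it was higher in mThy1-α-synuclein mice by 1.64-fold at 7 months and by 1.56-fold at 10 months. Of all genes tested, 2.23% were called higher at 7 months and 3.88% at 10 months, and 0.304% were called higher at both ages. The peptide-binding chains H2-Aa, H2-Ab1 and H2-Eb1, the invariant chain Cd74 and the transactivator Ciita had lower means in the transgenic mice at both ages. None of these 5 passed the adjusted cutoff. H2-DMa, H2-DMb1 and H2-Oa showed no change that passed it either.

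Compared per kilobase of annotated exon, Cd74 had the highest level and H2-Eb2 the lowest in all 4 groups. In wild-type mice at 7 months, the normalized count per kilobase was 23838 ± 3231 (SD, n = 4) for Cd74, 5139 ± 852 for H2-Eb1, 3904 ± 653 for H2-Aa and 2927 ± 376 for H2-Ab1. H2-DMa followed with 2171 ± 293 and H2-DMb1 with 1183 ± 138. Further down stood H2-Ob with 228 ± 43.0, H2-Oa with 205 ± 38.5, Ciita with 54.4 ± 19.6 and H2-Eb2 with 0.624 ± 0.608. The mice overlapped between H2-Eb1 and H2-Aa, between H2-Aa and H2-Ab1 and between H2-Ob and H2-Oa in this group, so those neighbours in the order did not separate beyond their spread. In transgenic mice at 7 months, H2-Ob (375 ± 66.5 per kilobase, n = 6) and H2-Oa (197 ± 34.3) did not overlap, whereas they did overlap in transgenic mice at 10 months.

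**Figure D1:**
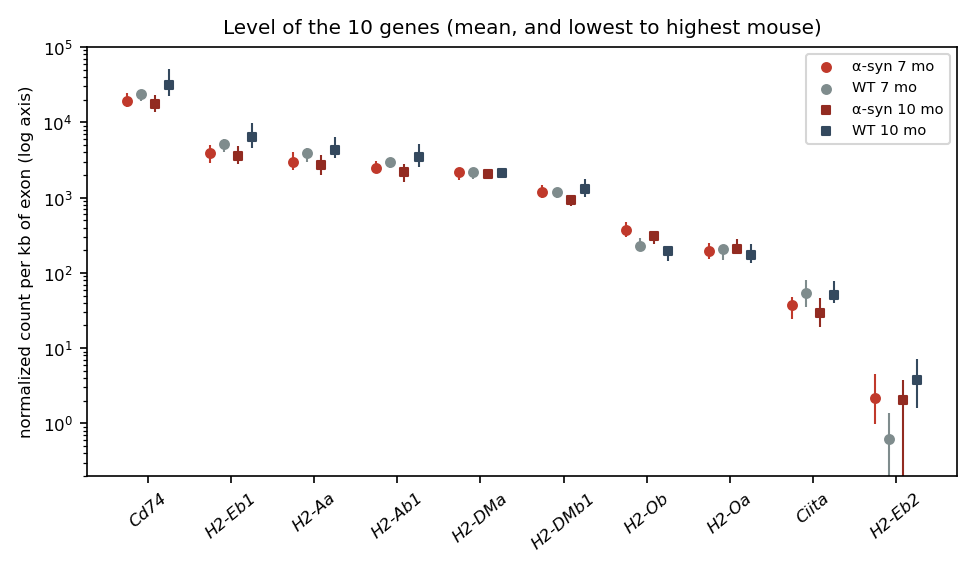
Normalized count per kilobase of exon (log axis) of the 10 class II genes in each group, as the mean (point) and the range from the lowest to the highest mouse (line). Cd74 lies above all other genes in each group and H2-Eb2 below all others, where a line that runs to the bottom edge includes a mouse with 0 reads.

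Of the 10 genes, 8 lie in the class II region on chromosome 17, while Ciita and Cd74 lie elsewhere in the genome. On the mm10 build with the GENCODE M21 annotation, H2-Oa is at chr17:34092340-34095234, H2-DMa at chr17:34119541-34139101, H2-DMb1 at chr17:34153072-34160230 and H2-Ob at chr17:34238903-34254414. H2-Ab1 follows at chr17:34257689-34269419, H2-Aa at chr17:34282744-34287823 on the minus strand, H2-Eb1 at chr17:34305867-34316674 and H2-Eb2 at chr17:34325665-34341412. Ciita is at chr16:10480059-10528418. H2-Ob and H2-Ab1 are neighbours on the same strand, yet the first changed upward and the latter had lower means.

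Class II promoters are known for a conserved module of W/S, X and Y boxes, in which the X box is bound by the RFX complex and the Y box, an inverted CCAAT element, by NF-Y. RefSeq promoter sequences on GRCm38.p6 were at hand for 7 of the 10 genes, and the 250 bases before each start were searched on both strands. The letters were chosen after the sequences had been read. GNAAC followed on the same strand by GATTGG, with starts 20 to 40 bases apart, was found at 6 of these 7 genes and in 1.05% of 32851 mouse promoters. GATTGG alone was found at 7 of 7 and in 14.6% of all promoters, and GNAAC alone at 7 of 7 and in 79.6%. For H2-Oa and H2-DMb1 the stretch reached past the GENCODE start of the gene, and its letters are left out. The stretches of H2-Ob, H2-Aa, H2-Eb1 and the barely detected H2-Eb2 are shown. They set the changed gene beside genes with lower or very low values. Each reads 5′ to 3′ on the strand of its gene, at chr17:34238814-34238856 for H2-Ob, chr17:34287863-34287908 for H2-Aa (minus strand), chr17:34305772-34305816 for H2-Eb1 and chr17:34325539-34325583 for H2-Eb2. Capitals mark GNAAC and GATTGG.
H2-Ob: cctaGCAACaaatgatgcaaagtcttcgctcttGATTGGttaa
H2-Aa: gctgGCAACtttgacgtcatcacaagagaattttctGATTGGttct
H2-Eb1: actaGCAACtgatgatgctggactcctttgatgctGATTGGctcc
H2-Eb2: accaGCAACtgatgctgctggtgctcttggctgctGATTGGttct
The 2 elements start 29 bases apart in H2-Ob, 32 in H2-Aa and 31 in H2-Eb1 and H2-Eb2. H2-Ob, whose level was higher in the transgenic mice, held the same pair of elements as H2-Eb1, whose mean was lower.

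Among the peptide-binding chains, H2-Aa encodes the α chain and H2-Ab1 the β chain of the I-A molecule, and H2-Eb1 encodes the β chain of I-E. At 7 months, H2-Eb1 reached normalized counts between 5651 and 9735 (median 7522) in the 6 transgenic mice. The wild-type mice had 10017, 7804, 10324 and 11819. All 6 transgenic mice lay below the wild-type median, although the ranges overlapped, and the log2 fold change of -0.41 ± 0.15 (SE) did not pass (limma, adjusted p = 0.146). H2-Aa lay between 8848 and 15296 (median 11011) in transgenic mice and at 16148, 11428, 14643 and 17084 in wild-type mice. Again all 6 transgenic values were under the wild-type median, with a log2 fold change of -0.38 ± 0.16 (adjusted p = 0.196). H2-Ab1, at 5535 to 7928 (median 6007) against 7214, 6411, 7723 and 8719, gave -0.23 ± 0.11 (adjusted p = 0.231).

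At 10 months the lower values of the chains were spread unevenly over the mice. H2-Eb1 stood at 9322, 8878, 5647, 5605 and 5436 in transgenic replicates 1 to 5. In wild-type replicates 1 to 5 it stood at 9142, 18902, 11582, 8982 and 12535. Transgenic replicates 3 to 5 lay well under every wild-type mouse, whereas replicate 1 lay inside the wild-type range, and the log2 fold change was -0.80 ± 0.24 (limma, adjusted p = 0.0796). H2-Aa was 13875, 13156, 8981, 8498 and 7669 in transgenic mice and 13110, 24542, 15370, 12634 and 16290 in wild-type mice. H2-Ab1 was 7101, 7103, 5137, 4541 and 4176 in transgenic mice and 6811, 13411, 8820, 6587 and 8644 in wild-type mice. The same pair of transgenic mice was high and the same wild-type mouse, replicate 2, was highest for all 3 chains. The log2 fold changes were -0.65 ± 0.22 for H2-Aa (adjusted p = 0.114) and -0.64 ± 0.22 for H2-Ab1 (adjusted p = 0.118).

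H2-Eb2, a further I-E β chain gene, was barely detected. Its normalized count lay between 3.36 and 15.3 in transgenic and between 0 and 4.72 in wild-type mice at 7 months, and between 0 and 12.7 and between 5.38 and 24.5 at 10 months. At most 26 reads stood behind any of these values, and the groups overlapped at both ages.

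Cd74, the invariant chain that fills the groove of newly made class II molecules, was the most abundant of the set. At 7 months it lay between 27069 and 41675 (median 30242) in transgenic mice. In wild-type mice it was 40437, 32456, 41978 and 45223. The ranges overlapped, 4 of 6 transgenic mice lay under every wild-type mouse, and the log2 fold change was -0.30 ± 0.13 (limma, adjusted p = 0.192). At 10 months the transgenic mice had 38399, 35289, 24230, 24506 and 23325. The wild-type mice had 37718, 86592, 49140, 37094 and 48534. Only transgenic replicate 1 reached the wild-type range, wild-type replicate 2 stood far above the other mice, and the log2 fold change of -0.79 ± 0.25 did not pass (adjusted p = 0.0899).

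The H2-DM heterodimer, which exchanges CLIP for other peptides, is made of H2-DMa and H2-DMb1. H2-DMa had close group means, with 7552 ± 1054 (SD, n = 6) in transgenic and 7485 ± 1010 (n = 4) in wild-type mice at 7 months, and 7027 ± 746 and 7328 ± 843 (n = 5 each) at 10 months. The 95% interval of its log2 fold change ran from -0.23 to 0.26 at 7 months and from -0.25 to 0.14 at 10 months (limma, adjusted p = 0.971 and 0.746). H2-DMb1 had a log2 fold change of 0.0009 ± 0.12 at 7 months (adjusted p = 0.998). At 10 months it was 1828, 1503, 1294, 1585 and 1492 in transgenic mice and 1724, 2972, 2355, 1723 and 2022 in wild-type mice. All but transgenic replicate 1 lay below the wild-type range, and the log2 fold change was -0.46 ± 0.14 (adjusted p = 0.0640). Counts of H2-DMb1 are uncertain, since 15.8% of its transcript windows of 75 bases are also found in its neighbour H2-DMb2, which had log2 fold changes of -0.14 ± 0.11 and -0.22 ± 0.15 and was not called at either age.

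H2-O, the inhibitor of H2-DM, pairs the α chain H2-Oa with the β chain H2-Ob. H2-Ob lay between 1598 and 2516 (median 1905) in the 6 transgenic mice at 7 months. The wild-type mice had 1091, 1049, 1197 and 1558. No value overlapped between the genotypes, and the log2 fold change was 0.72 ± 0.14 (limma, adjusted p = 0.00844). At 10 months the transgenic mice had 1785, 1310, 1560, 1831 and 1750. The wild-type mice had 777, 1136, 1099, 1168 and 1108. The genotypes were again apart in all mice, with a log2 fold change of 0.64 ± 0.12 (adjusted p = 0.00765). Of all genes tested, 3.55% at 7 months and 3.78% at 10 months had every transgenic mouse above every wild-type mouse. H2-Ob was the single class II gene among the 9 whose genotypes did not overlap in either direction, against 7.53% and 7.27% of all genes tested.

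H2-Oa, the partner chain, was not called at either age. It lay between 213 and 352 (median 282) in transgenic mice and at 315, 211, 334 and 291 in wild-type mice at 7 months. At 10 months it was 249, 266, 264, 391 and 276 in transgenic mice and 192, 335, 208, 243 and 252 in wild-type mice. The genotypes overlapped at both ages, and the log2 fold changes were -0.05 ± 0.17 and 0.24 ± 0.17 (limma, adjusted p = 0.899 and 0.425). Among ratios of levels per kilobase, examined after the values had been seen and given as descriptions, H2-Ob over H2-DMa ran from 0.136 to 0.196 in transgenic and from 0.0869 to 0.131 in wild-type mice at 7 months. At 10 months the same ratio ran from 0.122 to 0.189 in transgenic and from 0.0777 to 0.117 in wild-type mice. H2-Ob over H2-Oa overlapped between the genotypes at both ages, with means of 1.93 ± 0.351 and 1.14 ± 0.252 at 7 months and 1.52 ± 0.268 and 1.15 ± 0.188 at 10 months.

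**Figure D2:**
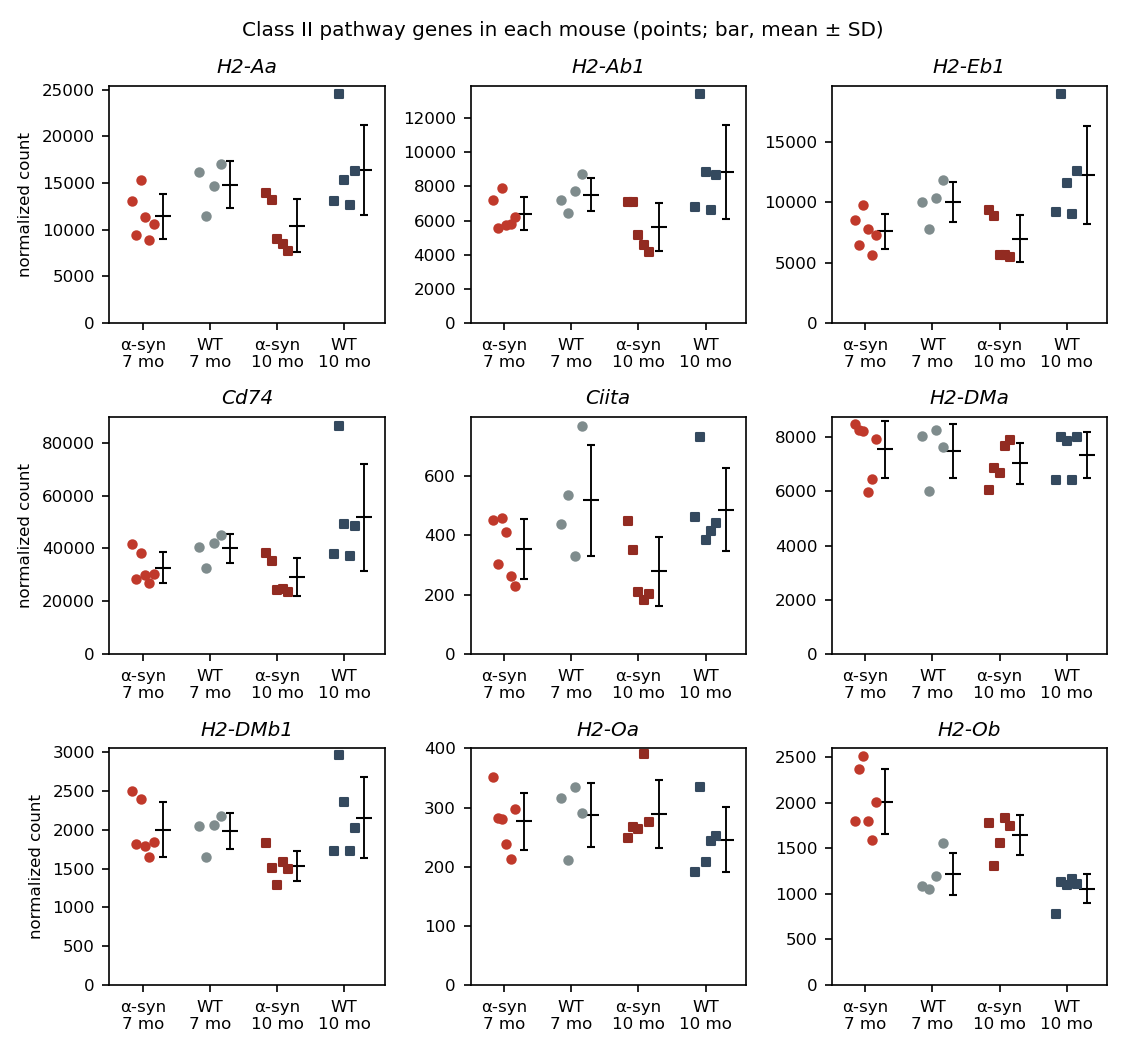
Normalized count of each of the 9 tested class II genes in every mouse (points, linear axis from 0), with the mean and SD of each group beside them (bar). H2-Ob shows no overlap between the genotypes at either age, whereas in the panels of H2-Aa, H2-Ab1, H2-Eb1 and Cd74 transgenic replicates 1 and 2 at 10 months sit above replicates 3 to 5 and a single wild-type mouse at 10 months stands highest.

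Ciita, the transactivator, was among the least abundant of the genes per kilobase. At 7 months it lay between 229 and 460 (median 358) in transgenic mice. The wild-type mice had 439, 536, 332 and 769. The log2 fold change was -0.53 ± 0.25 (limma, adjusted p = 0.245). At 10 months the transgenic mice had 448, 353, 209, 183 and 203. The wild-type mice had 463, 733, 384, 417 and 441. Only transgenic replicate 1 lay within the wild-type range, replicates 3 to 5 held the 3 lowest values, and the log2 fold change of -0.86 ± 0.26 did not pass (adjusted p = 0.0623).

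Of the 9 genes tested, 1 was called at 7 months and 1 at 10 months, beside 4.93% and 7.67% of all genes tested at those ages. At an unadjusted p under 0.05, 5 of 9 differed at 7 months and 7 of 9 at 10 months, beside 21.3% and 23.5% of all genes. The lower ones at that cutoff were 4 at 7 months (H2-Aa, H2-Ab1, H2-Eb1 and Cd74), where 10.6% of all genes were lower, and 6 at 10 months (with Ciita and H2-DMb1 added), where 12% were. The first 4 were lower at both ages by this cutoff, as were 1.47% of the genes tested at both. Among mice of the same group these 4 genes varied together (Pearson's r between 0.95 and 0.98), so they do not count as independent genes. The median log2 fold change over the 9 genes was -0.23 at 7 months and -0.64 at 10 months, beside medians of 0.0009 and -0.0026 over all genes tested. The outcome at 10 months depended on the tool. With DESeq2 on the recovered reads, 5 of 9 were called, namely H2-Ob as higher and H2-Eb1, H2-DMb1, Cd74 and Ciita as lower, with adjusted p between 0.0122 and 0.0444 for the lower ones, whereas edgeR called H2-Ob alone. DESeq2 called 12.4% of all genes at this age.

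**Figure D3:**
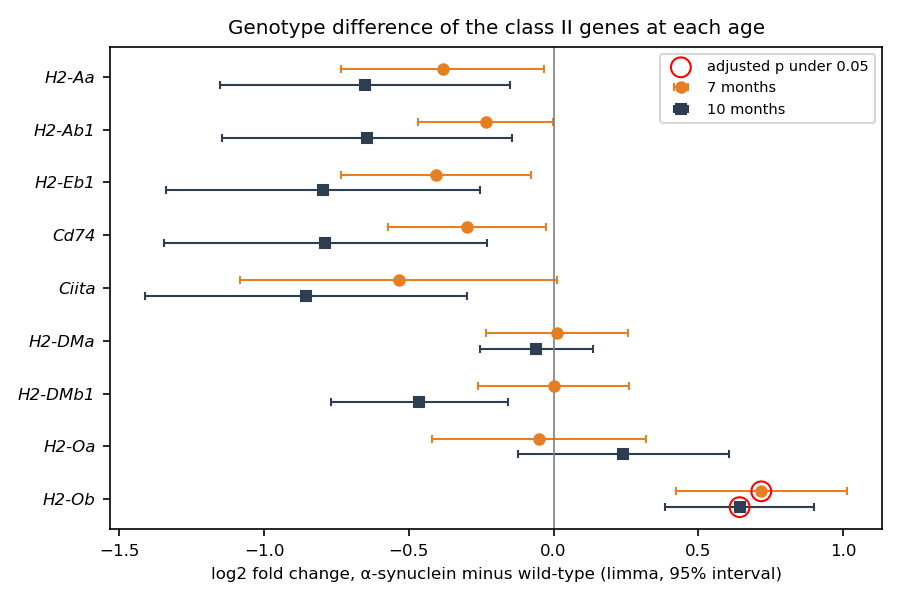
Log2 fold change of the class II genes, transgenic over wild-type, at 7 months (circles) and 10 months (squares), with the 95% interval of the limma fit. Both points of H2-Ob lie above 0 and are ringed as passing an adjusted p of 0.05, while the points of H2-Aa, H2-Ab1, H2-Eb1, Cd74 and Ciita lie below 0 without passing.

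Whether the genotype effect differed between the ages was tested in a fit of all 20 mice, in which all 10 genes passed the filter on low values. None of the 10 was called, beside 6.36% of the 14457 genes in that fit, and 2 had an unadjusted p under 0.05 (H2-Eb2 and H2-DMb1), beside 21.9% of all genes. edgeR and DESeq2 also called 0 of the 10, with 2 at an unadjusted p under 0.05. For H2-Ob the effect at 10 months minus that at 7 months was -0.07 ± 0.19 (95% interval -0.48 to 0.33, adjusted p = 0.865). For Cd74 it was -0.49 ± 0.30 (interval -1.12 to 0.14, adjusted p = 0.360) and for H2-DMb1 -0.47 ± 0.20 (interval -0.88 to -0.05, adjusted p = 0.178). The larger differences at 10 months were thus not shown to differ from those at 7 months.

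Ciita varied together with 4 of its known target genes among mice of the same group. With log2 values centred on the group mean over 20 mice, Pearson's r with Ciita was 0.70 for H2-Ab1 and Cd74, 0.74 for H2-Eb1 and 0.75 for H2-Aa (two-sided permutation test, adjusted over the 4 relations, p = 0.00232 for each). Spearman's rho was 0.55 for H2-Ab1 and Cd74 (adjusted permutation p = 0.0244) and 0.66 for H2-Aa and H2-Eb1 (adjusted permutation p = 0.0115). Without the 2 mice farthest out in Ciita, transgenic replicate 1 at 10 months and wild-type replicate 4 at 7 months, r was between 0.64 and 0.71. The difference between the ages was not tested. Among the 10 mice of 7 months r lay between 0.50 and 0.56 and did not pass (adjusted permutation p = 0.165), and among those of 10 months it lay between 0.84 and 0.90 (adjusted permutation p = 0.0136). At 10 months Spearman's rho lay between 0.58 and 0.72 with adjusted permutation p between 0.0574 and 0.0627, which did not pass. Over the 20 centred mice, Pearson's r with Ciita was 0.54 for H2-DMb1, 0.14 for H2-Ob, -0.01 for H2-Oa and -0.19 for H2-DMa. These further relations were not tested.

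**Figure D4:**
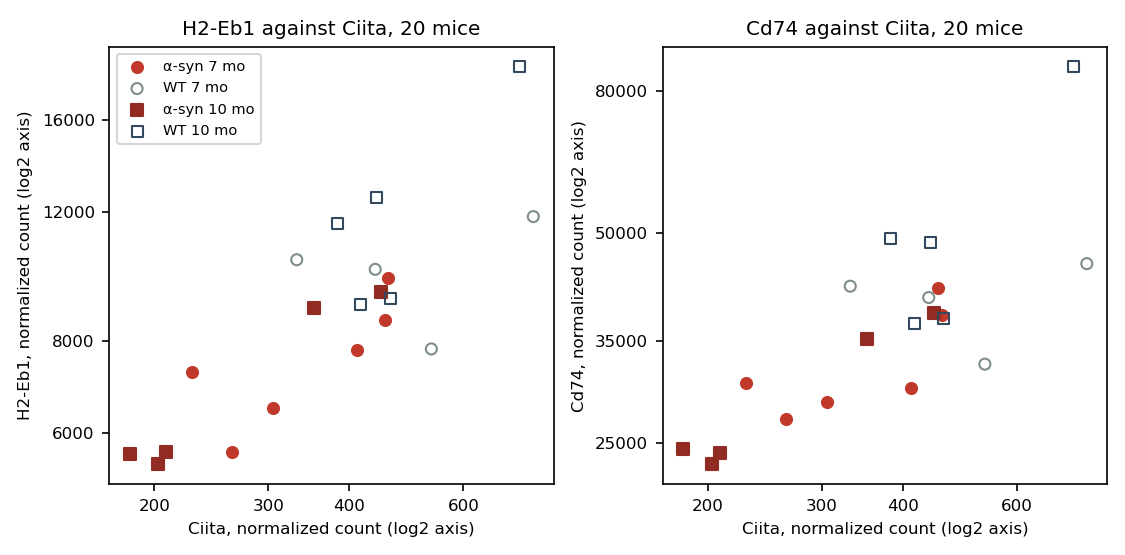
Normalized counts of H2-Eb1 (left) and Cd74 (right) against Ciita in each of the 20 mice, both axes on a log2 scale, with filled symbols for mThy1-α-synuclein and open symbols for wild-type mice. Transgenic replicates 3 to 5 at 10 months lie together at the lower left, and wild-type replicate 2 at 10 months lies at the top right.

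As a description, the genes most like each of these members over the 20 group-centred mice were looked up among 14457 genes. For H2-Ab1 they were Cd74 (r = 0.96), H2-Eb1 (0.95) and H2-Aa (0.95). For Ciita they were the interferon-induced GTPases Iigp1 (0.87), Gbp5 (0.86) and Tgtp2 (0.83), none of which was called at either age (adjusted p between 0.264 and 0.856). For H2-Ob they were Sgk1 (0.85), a serum- and glucocorticoid-induced kinase, Cdip1 (0.82) and Pias3 (0.79). Sgk1 was itself higher in transgenic mice, by 0.59 ± 0.11 at 7 months and 0.56 ± 0.12 at 10 months on the log2 scale (adjusted p = 0.00899 and 0.0130), and the other two were not called at either age. Between H2-Ob and the other class II genes r was lower, at 0.21 with H2-Ab1, 0.23 with Cd74, 0.14 with Ciita, 0.44 with H2-Oa and 0.47 with H2-DMa.

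These are bulk samples, so fewer cells of a type and less RNA per cell cannot be told apart. Beside the lower class II values at 10 months, markers of other class II-bearing or blood-derived cells also moved, where 3.79% of all genes were called lower. All 12 border macrophage markers had lower means in transgenic mice at 10 months and 6 of them fell, among them Mrc1, Pf4 and Folr2, and the summed normalized count of the list was 34079 to 42102 in transgenic and 44467 to 57042 in wild-type mice. Of 8 monocyte markers, 4 fell, among them Plac8, Chil3 and Fn1, with sums of 15933 to 27645 and 29088 to 56772. Of 7 tested markers of T and NK cells, 5 fell, with sums of 442 to 765 and 1088 to 2620. Of 10 dendritic cell markers, Cd209a fell and Itgax rose, with overlapping sums of 5218 to 6200 and 5493 to 6576. No marker in these lists was at 0 in all mice. Their part in the class II values was not tested.

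At 7 months, none of the 12 border macrophage, 8 monocyte or 10 dendritic cell markers was called, and the sums of all 3 lists overlapped between the genotypes, while 3 of 7 T and NK cell markers fell (2.7% of all genes were called lower), with sums of 350 to 1054 and 1392 to 2763. The transgenic mice with high class II values at 10 months, replicates 1 and 2, had monocyte sums of 22384 and 19548, inside the range of the other transgenic mice. Their border macrophage sums, 34079 and 42102, were the lowest and the highest of the 5 transgenic mice, and their T and NK cell sums, 442 and 457, were the lowest of the 5. Dendritic cell sums were 6158 and 6200 in replicates 1 and 2 and 5442, 6197 and 5218 in transgenic replicates 3, 4 and 5. B cells express H2-Ob strongly in other tissues. Cd79b, the most abundant of the listed B cell markers, overlapped between the genotypes at 7 months. At 10 months it lay between 474 and 554 in transgenic and between 342 and 455 in wild-type mice without overlap (3.78% of all genes at 10 months), with a log2 fold change of 0.27 ± 0.11 (limma, adjusted p = 0.139). Pax5 had group means between 1.38 and 5.64 normalized counts. Of 10 listed B cell markers, 5 were tested at 7 months and 4 at 10 months, and none of those tested was called at either age. The summed B cell markers overlapped at both ages, with 584 to 848 in transgenic and 631 to 973 in wild-type mice at 7 months and 535 to 782 and 459 to 552 at 10 months. Of the 12 microglial markers, Gpr34 rose at 7 months and Cx3cr1, Sall1, Siglech and Itgam rose at 10 months. Of all genes, 2.23% and 3.88% were called higher at those ages. The part of the microglial and B cell markers in the H2-Ob values was not tested. Markers of other brain cells were low, and at 7 months 6 of 8 neuron, 3 of 8 oligodendrocyte and 2 of 8 endothelial markers fell, while of 8 astrocyte markers 1 rose and 3 fell. At 10 months 1 astrocyte marker rose and no neuron, oligodendrocyte or endothelial marker was called.

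The wider pathway was described from lists of known genes. Over all genes tested, 4.93% were called at 7 months and 7.67% at 10 months. An unadjusted p under 0.05 was reached by 21.3% and 23.5% of them. The 11 genes listed for class II processing were proteases, a thiol reductase and Cst3, which encodes a protease inhibitor. Of these, Ifi30, the lysosomal thiol reductase, rose by 0.43 ± 0.10 on the log2 scale at 7 months (limma, adjusted p = 0.0203). Sppl2a, which cleaves the last Cd74 fragment in the membrane, rose by 0.31 ± 0.09 at the same age (adjusted p = 0.0488). At 7 months 10 of the 11 had a positive log2 fold change and 7 had an unadjusted p under 0.05. None of the 11 was called at 10 months, where 4 had a positive log2 fold change and 2 had an unadjusted p under 0.05. Cathepsin S (Ctss), which removes most of Cd74, had close means of 714794 ± 59977 and 684264 ± 56366 at 7 months and 686289 ± 52537 and 652441 ± 24640 at 10 months. For Ifi30 the effect differed between the ages (-0.75 ± 0.16, adjusted p = 0.00793).

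Of the 8 factors that bind class II promoters, Nfya, a subunit of NF-Y, rose at 7 months by 0.26 ± 0.07 (limma, adjusted p = 0.0499) and fell by 0.29 at 10 months (SE 0.06, adjusted p = 0.0155). That difference between the ages passed its own test (-0.56 ± 0.09, adjusted p = 0.00158). Creb1, which binds the X2 box, rose by 0.28 ± 0.08 at 7 months (adjusted p = 0.0476), and its effect differed between the ages (-0.48 ± 0.14, adjusted p = 0.0337). None of Rfx5, Rfxap and Rfxank, the RFX subunits, was called at either age. The 12 genes listed for signalling around Ciita included Nlrc5, the class I transactivator. Of these, the interferon γ receptor chain Ifngr1 rose by 0.42 ± 0.08 at 7 months (adjusted p = 0.00480). Its effect also differed between the ages (-0.53 ± 0.12, limma, adjusted p = 0.013). Irf1, an interferon-induced factor that acts on a Ciita promoter, fell by 0.36 at 10 months (SE 0.10, adjusted p = 0.0434). None of the 10 tested genes of class II turnover and transport was called at either age. An unadjusted p under 0.05 was reached by 3 of them in the younger mice and by 0 in the older, beside 21.3% and 23.5% of all genes.

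Of the 43 other genes tested within 500 kb of H2-Ab1, 3 were called at 7 months (6.98%), all lower, namely the ribosomal protein genes Rps28 and Rps18 and the respiratory chain subunit Ndufa7. At 10 months 1 was called (2.33%), Atf6b, with a log2 fold change of -0.28 ± 0.08 (limma, adjusted p = 0.0401). Over all genes 4.93% and 7.67% were called at the respective ages, and 2.23% and 3.88% were called higher. Tap2, the peptide transporter gene that flanks H2-Ob and was picked after its values were seen, had 0.08 ± 0.11 and -0.18 ± 0.09 (adjusted p = 0.729 and 0.251). Of the 9 genes tested in the window of 500 kb around Ciita, Litaf fell at 7 months by 0.47 and at 10 months by 0.44 (adjusted p = 0.00784 and 0.00765). Clec16a fell at 10 months by 0.49 (adjusted p = 0.00162). The start of Litaf itself lies 586 kb from that of Ciita. Dexi, which overlaps Ciita on the opposite strand, had log2 fold changes of -0.04 ± 0.14 and 0.11 ± 0.13 (adjusted p = 0.901 and 0.667). The strand setting of the counts is not given in the sources used here, so reads of Ciita and Dexi, of H2-DMa and Brd2, of H2-Eb1 and Gm20513 and of H2-Oa and BC051537 cannot be told apart where they overlap. No annotated gene overlaps H2-Ob.

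**Figure D5:**
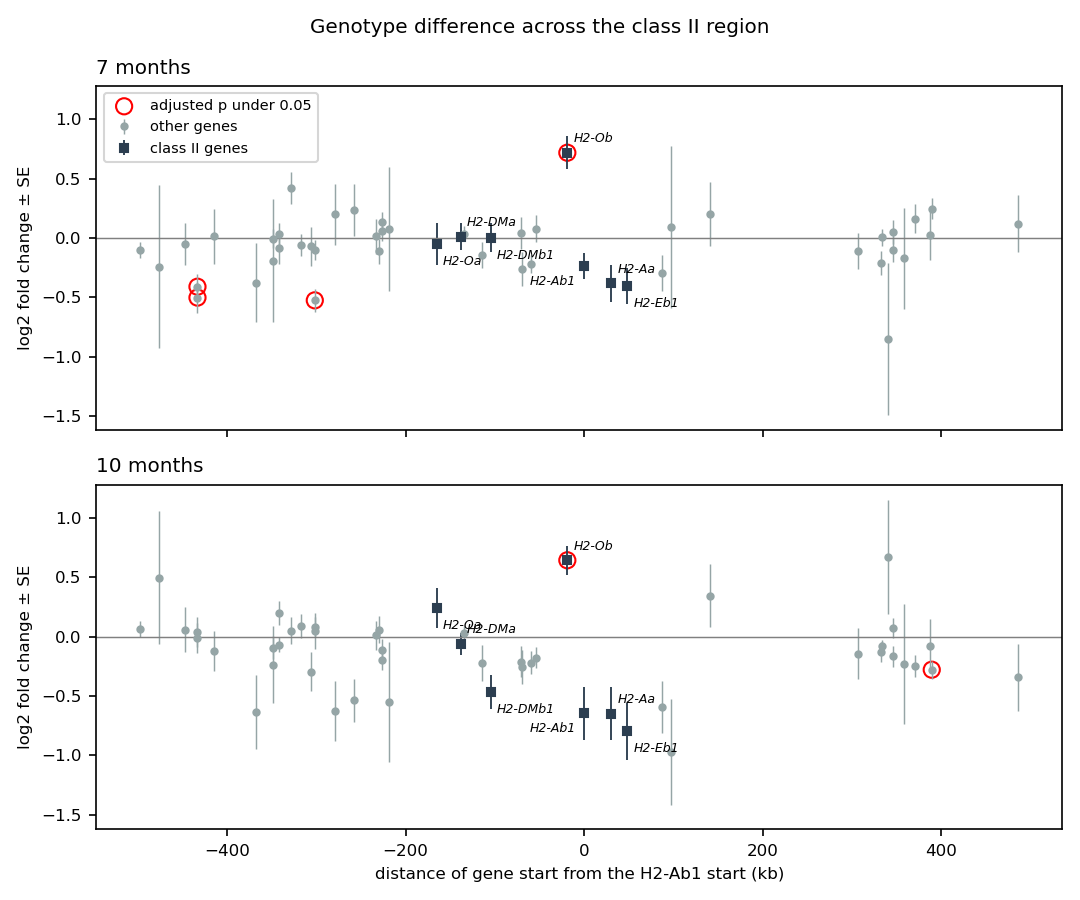
Log2 fold change (± SE) of every tested gene within 500 kb of H2-Ab1 at 7 months (upper panel) and 10 months (lower panel), by distance of its start from that of H2-Ab1 in kb, with class II genes as squares and other genes as circles. H2-Ob, 18.8 kb before H2-Ab1, is ringed (adjusted p under 0.05) at both ages, while H2-Ab1, H2-Aa and H2-Eb1 on its other side lie below 0.

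The α chain of I-E is annotated as the polymorphic pseudogene H2-Ea-ps at chr17:34341959-34344645, since the H2b haplotype of C57BL/6 mice, which the reference genome carries, does not express it, whereas the H2d haplotype of DBA/2 mice does. B6D2F1/J mice descend from both strains. H2-Ea-ps was counted in all 20 mice, between 8152 and 23882 normalized counts. Its log2 fold changes were -0.29 ± 0.15 at 7 months and -0.59 ± 0.22 at 10 months (limma, adjusted p = 0.293 and 0.140). Per kilobase it was 2.37 to 3.05 times as high as H2-Eb1 over the mice of 10 months, with 2.81 to 3.05 in transgenic and 2.37 to 2.82 in wild-type mice. At 7 months this ratio was 2.67 to 3.03 in transgenic and 2.50 to 2.91 in wild-type mice. The genotypes overlapped in it at both ages. Which haplotypes the single mice carried is not given in the sources used here, and how far haplotype differences in read mapping enter the counts of this polymorphic region was not tested.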

How the data were processed

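Microglial RNA of 20 male mice was sequenced as read pairs. The authors trimmed reads with Trim Galore 0.6.7, mapped them to mm10 with HISAT2 2.2.1, counted them per gene with featureCounts and, per the methods, used DESeq2 1.44.0. The deposited signal values are counts that the authors divided by 1 size factor per mouse, and they proved to be size factors over the mice of each age alone. Dividing by the step of each mouse gave whole reads for 100% of values in 19 mice (tolerance 0.02), and for replicate 5 of the 10-month transgenic mice it lay too near 1 to be tested. Annotation release, strand and multi-mapping settings of the counting are not given in the sources used here.

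Groups were read from the titles of the samples. The 10 genes, the gene lists and the tests were chosen with earlier results of these data known. limma 3.58.1 (R 4.3.3, mean-variance trend, robust) was fitted to log2(value + 1) over 13887 genes at 7 months, 13627 at 10 months and 14457 in the fit of all mice, keeping genes that reached 10 in 4, 5 and 4 mice or more. Intervals are 95% intervals of the fit. limma on the deposited normalized counts was kept as the main test, although whole reads could be recovered and the study itself tested with DESeq2. edgeR 4.0.16 and DESeq2 1.42.0 on the recovered reads were alternatives, as were pseudocounts of 0.5 and 5, no filter, limma on TMM-scaled log2 CPM, a replicate block, and leaving out each mouse. edgeR called 695 genes at 7 months and 1080 at 10 months. Each fit was tested on simulated data. Averaged over all genes, the chi-square between replicate mice was at least 24.7 per gene. This average says nothing of genes with few reads, such as H2-Eb2 with at most 26. Relations with Ciita were tested with permutation tests in Python 3.11.15 (scipy 1.17.1), and plots were drawn with matplotlib 3.10.9.

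Genes were named by a rule: the 10 genes, listed pathway genes past the test at either age, the 3 genes most correlated with H2-Ab1, Ciita and any class II gene called, and called genes within 500 kb of H2-Ab1 or Ciita. Further genes were named outside this rule, among them Ctss, Rfx5, Rfxap, Rfxank, Nlrc5, Cd79b, Pax5, Dexi and Tap2. Lists covered class II processing, promoter factors, signalling around Ciita, turnover, and markers of microglia, border macrophages, monocytes, dendritic, B, T and NK cells, astrocytes, neurons, oligodendrocytes and endothelium. Positions are from GENCODE M21 (mm10) and promoters from RefSeq (GRCm38.p6). Methylation data were not analysed here, and a few marker genes are not reported here.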

Additional observations from a re-analysis of the deposited data

Results flagged for a closer look

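In groups of 4 to 6 mice, 4 of 40 combinations of class II gene and group held a mouse whose gap to its nearest neighbour exceeded Dixon's 95% critical value. The gaps were taken on normalized counts, not on the log2 scale of the tests. Chance flags about 1 in 20 groups where values are normal and groups independent. The class II genes were correlated, so the 40 combinations were not independent. All 4 were at 10 months. Wild-type replicate 2 stood highest for Cd74, at 86592 normalized counts with the next wild-type mouse at 49140, and for Ciita, at 733 with the next at 463. This mouse also had the fewest reads counted on genes, 33404096, and its summed monocyte and border macrophage markers (53515 and 54978) lay inside the wild-type ranges, while its summed T and NK cell markers (2620) were the highest of the 10-month mice. The part of these in its values was not tested. Without it the log2 fold change at 10 months was -0.59 ± 0.17 for Cd74 (limma, adjusted p = 0.0777) and -0.70 ± 0.24 for Ciita (adjusted p = 0.119). H2-Ob was low in wild-type replicate 1, at 777 with the next wild-type mouse at 1099, and H2-Oa was high in transgenic replicate 4, at 391 with the next transgenic mouse at 276. Without these mice H2-Ob gave 0.54 ± 0.10 (adjusted p = 0.0104) and H2-Oa 0.13 ± 0.16 (adjusted p = 0.674).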

How the results depend on the processing

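H2-Ob was called higher at 7 and at 10 months in each of the 17 alternatives run at that age, with adjusted p up to 0.0463 at 7 months (without wild-type replicate 1) and 0.0233 at 10 months when single mice were left out. H2-Aa, H2-Ab1, H2-Eb1, Cd74 and Ciita had a negative log2 fold change in all 85 such fits at each age. These were 5 correlated genes under 17 alternatives on the same mice, so the 85 fits are not independent checks. The number of class II genes called was 1 at 7 months and 0 for the difference between the ages under every alternative. At 10 months it was 1, but 5 with DESeq2, 6 with the replicate block, and 1 to 2 when single mice were left out, since Ciita was called without transgenic replicate 1 (adjusted p = 0.0211) and H2-DMb1 without wild-type replicate 4 (adjusted p = 0.0336). Under the replicate block the calls beside H2-Ob were H2-Aa, H2-Ab1, H2-Eb1, Cd74 and Ciita, with adjusted p between 0.0117 and 0.0428. The replicate numbers name mice only. Deviations of same-numbered mice had correlations of -0.13 to 0.03 at 7 months and -0.05 to 0.10 at 10 months, so the numbers did not pair the mice.

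Direction changed for values near 0 only. At 7 months H2-Oa was 0.009 with the replicate block and -0.19 to 0.027 when single mice were left out, H2-DMa -0.090 to 0.076 and H2-DMb1 -0.086 to 0.052. The difference between the ages was -0.20 to 0.0051 for H2-Ob and -0.13 to 0.031 for H2-DMa when single mice were left out. Over the same fits r with Ciita was 0.64 to 0.76 for H2-Ab1, 0.70 to 0.81 for H2-Aa, 0.69 to 0.81 for H2-Eb1 and 0.65 to 0.77 for Cd74, with permutation p up to 0.0171. The cause of these shifts was not tested.

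Over all genes, DESeq2 called 1163 at 7 months and 1691 at 10 months, where limma called 684 and 1045. The block gave 414 at 7 months and 482 in place of 920 for the difference between the ages. Leaving out single mice gave 282 to 858 at 7 months, with the lowest counts without wild-type replicates 1, 2 or 3 (282, 444 and 371). At 10 months it gave 497 to 1235, with 497 to 671 without transgenic replicates 1, 3 or 5 or wild-type replicates 1, 2, 3 or 5. H2-Eb2, at 26 reads or fewer, was tested within the ages only without the filter, with log2 fold changes of 1.61 ± 0.59 at 7 months and -1.07 ± 0.69 at 10 months (limma, adjusted p = 0.156 and 0.439).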

Other observations

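With size factors computed over all 20 mice, the levels of the class II genes can be set side by side across the ages, although age and processing cannot be told apart and no test was made. H2-Ob had means of 1941 ± 345 (SD, n = 6) and 1708 ± 224 (n = 5) in transgenic mice of 7 and 10 months and 1181 ± 223 (n = 4) and 1096 ± 167 (n = 5) in wild-type mice. Cd74 had means of 31464 ± 5588 and 30223 ± 7347 in transgenic mice and 38634 ± 5235 and 53689 ± 21105 in wild-type mice. The mean at 10 months over that at 7 months was 1.39 in wild-type and 0.961 in transgenic mice for Cd74, and 1.31 and 0.992 for H2-Eb1. The wild-type spread at 10 months was wide, and the mouse with the highest Cd74 is part of it.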
